A study of Schizosaccharomyces pombe with 6 samples.

Results

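The genes described here are the 48 fission yeast genes whose symbols on the array begin with *atg* (autophagy) or *vps* (vacuolar protein sorting), of 2919 tested features. They were found by symbol alone, among probe sets that the platform annotation assigns to 1 *S. pombe* gene. The rule used no measured value, but it was chosen with earlier results of these data known. The gene *vps71*, a chromatin remodelling gene with a sorting name, was left out. Of the 48 genes, 17 carry an *atg* symbol and 31 a *vps* symbol, and each has 1 probe set. All samples were *rae1-167* cells in the 972 strain background, grown in YE4S medium, in which the essential mRNA export factor Rae1 is temperature-sensitive. Cells kept at 25°C, where Rae1 functions, were compared with cells held at 36°C for 1 h, with 3 arrays at each temperature. The study asked whether blocking mRNA export raises a few mRNAs or many. The samples include no wild type cells, so that an effect of the temperature shift and an effect of the mutation cannot be told apart.

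Autophagy encloses cytoplasm in a double membrane, the autophagosome, which fuses with the vacuole, where its content is degraded. The Atg proteins build that membrane in steps: the Atg1 kinase complex starts it, vesicles carrying Atg9 and a lipid channel made of Atg2 supply it, a phosphatidylinositol 3-kinase marks it, and the ubiquitin-like proteins Atg8 and Atg12 are conjugated to expand it. The Vps proteins, named from budding yeast mutants that secrete vacuolar hydrolases, carry cargo from the Golgi through endosomes to the vacuole. They include ESCRT, which buds cargo into the endosome, retromer and GARP, which bring receptors back to the Golgi, and the HOPS and CORVET tethers, which join membranes at endosome and vacuole. Roles given below rest largely on budding yeast, with fission yeast work for many of the Atg proteins.

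Signals are the deposited intensities on a linear scale, and changes are log2 fold changes of 36°C over 25°C from limma with its standard error (SE). A gene is said to have risen or fallen where its Benjamini-Hochberg adjusted p over all 2919 features was under 0.05. All 48 genes were above background on every array. The lowest signal was 36.3, whereas the background, the 90th percentile of budding yeast probe sets, lay between 14.0 and 21.3. The 50 probe sets for budding yeast *ATG* and *VPS* genes on the same arrays had a median signal of 3.6, and 0 of them exceeded background on every array. The median feature changed by -0.66, and the median *S. pombe* signal lay between 1939 and 2617 at 25°C and between 1146 and 1579 at 36°C. In bulk samples such as these, fewer cells with a transcript and less transcript per cell cannot be told apart. The 5′ to 3′ signal ratio was lower on every 36°C array for 3 of 7 protein-coding control genes (by -1.43, -0.61 and -0.33 on the log2 scale), and its part in the results was not tested. The signal of *rae1* itself lay between 4299 and 4717 at 25°C and between 1497 and 1634 at 36°C.

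More *atg* genes rose than fell at 36°C, whereas more *vps* genes fell than rose, as was also the case among all features. Among the 17 *atg* genes 8 rose and 4 fell, while 5 stayed short of the threshold, and their log2 fold changes ran from -1.31 to 2.14 around a median of 0.70. Among the 31 *vps* genes 4 rose, 20 fell and 7 stayed short of it, with values from -3.75 to 1.04 around a median of -0.90. Among all features, 12.1% rose and 51.9% fell. The share that rose was thus 47.1% for the *atg* genes against 12.9% for the *vps* genes, and the latter lay near the share of all features. The share that fell was 23.5% for the *atg* genes and 64.5% for the *vps* genes, against 51.9% of all features. A fall was thus the more common change across the array as well as among the *vps* genes. Of the changes of at least 2-fold, 6 *atg* genes were higher and 1 was lower, whereas 1 *vps* gene was higher and 14 were lower. Of all features, 7.26% were higher and 39.8% lower by that measure. A ratio of mean signals of at least 2 was reached by 7 *atg* genes and 1 *vps* gene, against 7.74% of all features, and the mean of the 3 ratios within replicate number gave the same counts, against 7.81%.

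**Figure D1:**
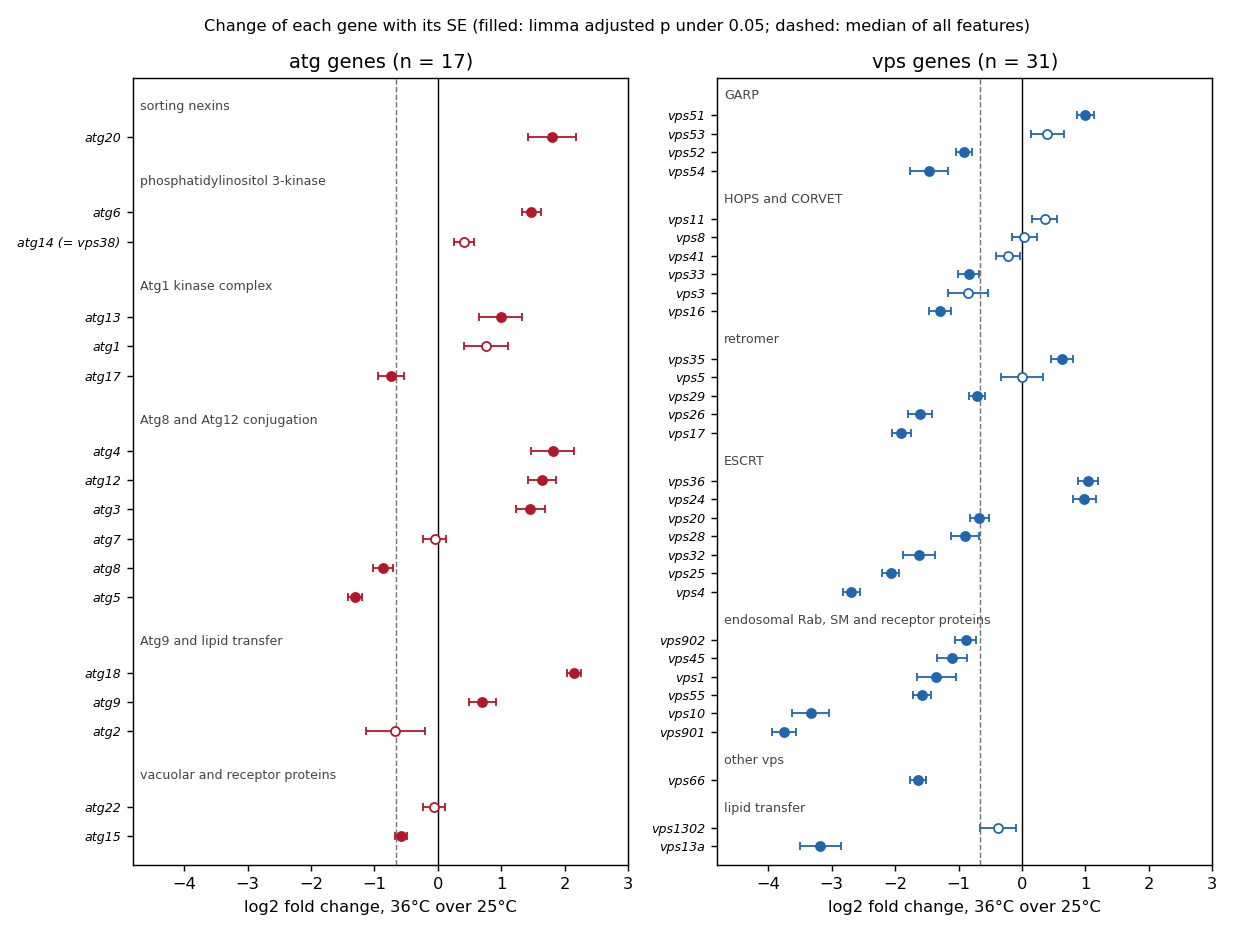
Log2 fold change (36°C over 25°C, x axis) of each of the 17 *atg* and 31 *vps* genes, grouped by role, with its SE as a bar. Filled points passed limma's test and the dashed line is the median of all features at -0.66. The 10 *atg* genes above 0 include 8 that passed, and the *vps* genes reach from 1.04 for *vps36* down to -3.75 for *vps901*.

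**Figure D2:**
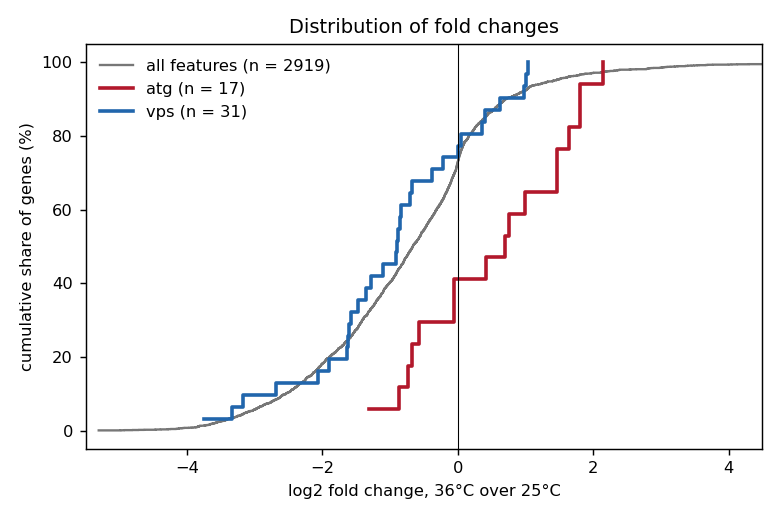
Cumulative share of genes (%, y axis) up to each log2 fold change (x axis) for all 2919 features, the 17 *atg* genes and the 31 *vps* genes. The *vps* curve runs close to that of all features, and the *atg* curve lies to the right of it, with medians of -0.90, -0.66 and 0.70.

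The separation was alike in each replicate. Within replicate numbers 1, 2 and 3 the median log2 ratio of the *atg* genes was 0.70, 0.57 and 0.76, and that of the *vps* genes was -0.86, -1.06 and -1.03. Each pair therefore placed the *atg* genes above the *vps* genes, by 1.56, 1.63 and 1.78, while the median of all features was -0.67, -0.67 and -0.60. Individual genes were positive in 12, 10 and 12 of 17 *atg* cases and in 7, 6 and 8 of 31 *vps* cases. In the fit over all arrays, 788 of all 2919 features had a positive change, beside 10 *atg* and 8 *vps* genes. The difference between the *atg* and *vps* medians is a description, as genes are not replicates of a condition. Multiplying an array by any factor leaves it as it is, since it is taken between genes of the same array.

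**Figure D3:**
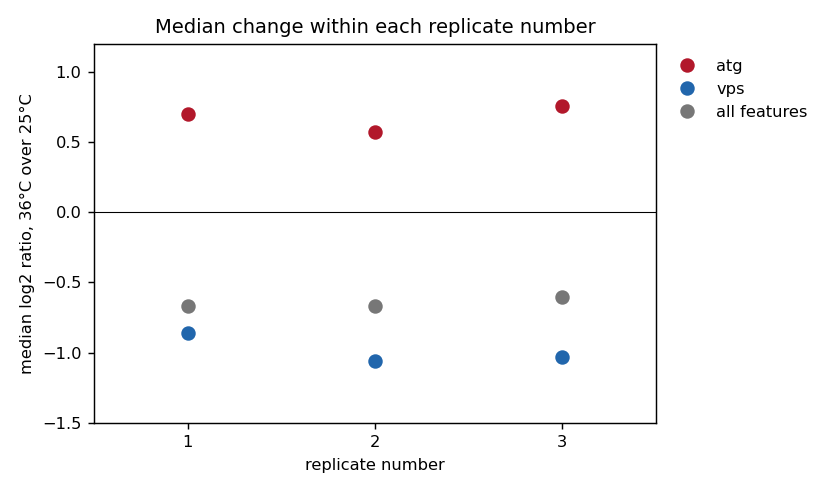
Median log2 ratio of 36°C over 25°C (y axis) for the *atg* genes, the *vps* genes and all features, taken within each replicate number (x axis). The *atg* medians lie between 0.57 and 0.76 and the *vps* medians between -1.06 and -0.86, with all features between them at -0.67 to -0.60.

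The scaling of the arrays sets where 0 lies. When each array was centred on its median, every log2 fold change was raised by 0.76, and 12 *atg* genes were then higher and 1 was lower, against 9 higher and 13 lower among the *vps* genes. Of all features 39.5% were then higher and 34.5% lower. After quantile normalisation the counts were 12 and 1 for the *atg* genes and 10 and 11 for the *vps* genes, with 27.5% of all features higher and 36.5% lower. The only *atg* gene that was lower in all of these scalings was *atg5*. Of the 20 *vps* genes that fell, *vps20*, *vps28*, *vps29*, *vps33* and *vps45* were no longer lower under either of these scalings. The genes *atg1*, *atg7*, *atg14*, *atg22*, *vps5*, *vps8*, *vps11*, *vps41* and *vps53*, which did not pass with the deposited scaling, were higher under both. In addition, *vps52* and *vps902* were not called after centring, and *vps1*, *vps16*, *vps26* and *vps54* were not called after quantile normalisation. Taking the replicate number as a block, which pairs the arrays, gave 10 *atg* genes higher and 5 lower and 6 *vps* genes higher and 22 lower, with 16% of all features higher and 58.9% lower.

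**Figure D4:**
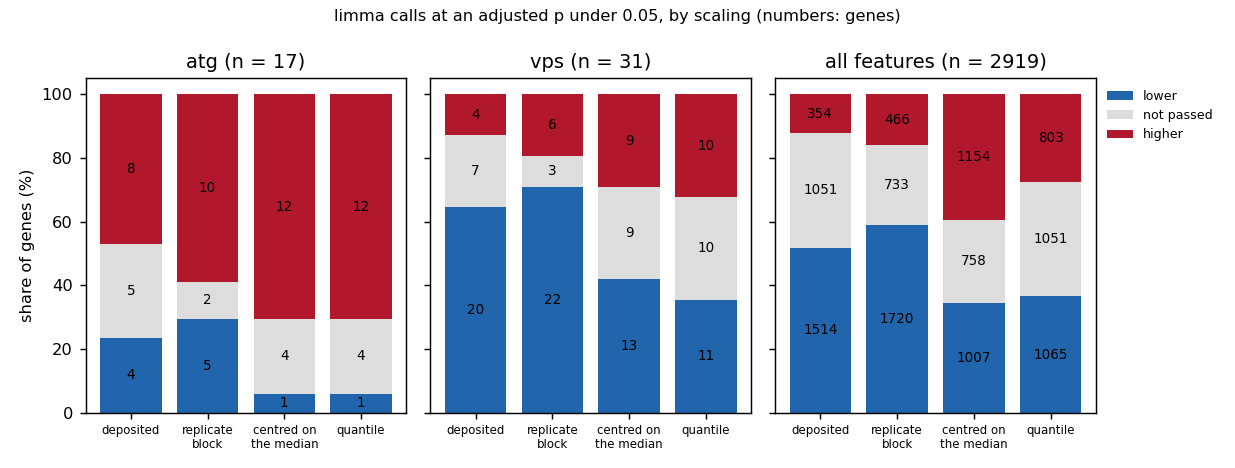
Share of genes (%, y axis) called higher, lower or not passed by limma for the *atg* genes, the *vps* genes and all features, with the deposited scaling, with replicate number as a block, after centring and after quantile normalisation (x axis). Numbers in the bars are genes. The *atg* genes go from 8 higher and 4 lower to 12 higher and 1 lower, and the *vps* genes from 4 higher and 20 lower to 9 or 10 higher and 13 or 11 lower.

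The largest increase was that of *atg18* (SPAC589.07c, now *atg1801*), which encodes a phosphoinositide-binding partner of Atg2. At 25°C the arrays gave 842, 822 and 829 and at 36°C they gave 3287, 3838 and 3917, so the groups lay far apart. The log2 fold change was 2.14 (SE 0.11, adjusted p = 3e-05), which exceeded that of 97.3% of all features. Of its partners, the lipid scramblase gene *atg9* (SPBC15D4.07c) rose from 885, 1317 and 1242 to 1508, 1961 and 2097, a change of 0.70 (SE 0.21, adjusted p = 0.025). The call for *atg9* was lost without 25°C replicate 1 or 3 or without 36°C replicate 2 or 3, where the adjusted p went up to 0.082. The lipid transfer gene *atg2* gave 392, 589.6 and 612 at 25°C against 158, 467 and 475 at 36°C, so that the groups overlapped and the 36°C array of replicate 1 was the lowest. Its change of -0.67 (SE 0.46, adjusted p = 0.25) did not pass, but did so in the paired fit (adjusted p = 0.046). A second relative of *atg18*, *atg1802*, carries the older symbol *mug179* on the array and so lies outside the 48 genes. It rose from 1241, 1288 and 1426 to 2118, 2098 and 2219.7, a change of 0.70 (SE 0.11, adjusted p = 0.0016).

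The conjugation machinery split in its transcripts. The protease gene *atg4* (SPAC19B12.08), whose product processes Atg8 and releases it from lipid, gave 186, 280.4 and 257 at 25°C and 506, 1064 and 1064 at 36°C. The change was 1.81 (SE 0.34, adjusted p = 0.0038), and the lowest 36°C array was still above every 25°C array. The gene of the ubiquitin-like protein Atg12 (SPAC1783.06c) rose from 927, 908 and 1035 to 2158, 3315 and 3713, a change of 1.64 (SE 0.22, adjusted p = 8.6e-04). The gene of the conjugating enzyme Atg3 (SPBC3B9.06c) rose from 632, 756 and 802 to 2731, 1550.0 and 1885, a change of 1.46 (SE 0.23, adjusted p = 0.0018). Unlike *atg4* and *atg12*, which were lowest on the 36°C array of replicate 1, *atg3* was highest there.
In contrast, *atg5* (SPBC4B4.10c), the acceptor to which Atg12 is attached, fell from 3602, 4031 and 3909.5 to 1486, 1509 and 1646, a change of -1.31 (SE 0.11, adjusted p = 1.1e-04). The gene of Atg8 itself (SPBP8B7.24c), the protein that is coupled to the autophagosome membrane, fell from 1139, 1185 and 1237 to 544, 632 and 801, a change of -0.87 (SE 0.16, adjusted p = 0.0040). The decrease of *atg5* was kept under each scaling, but *atg8* did not pass after centring or quantile normalisation, with a change of 0.25 by the latter. The activating enzyme gene *atg7* gave overlapping signals at both temperatures (476, 659.8 and 646 against 502, 555 and 654), a change of -0.05 (adjusted p = 0.84). Between the partners Atg12 and Atg5, the within-array log2 ratio of *atg12* to *atg5* shifted by 2.96 (SE 0.22, n = 3 arrays per temperature), the 36°C arrays lying between 2.55 and 3.18 above the 25°C mean. This pair, like the pairs of subunits below, was picked after the values were seen, and the shift is given with no test.

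**Figure D5:**
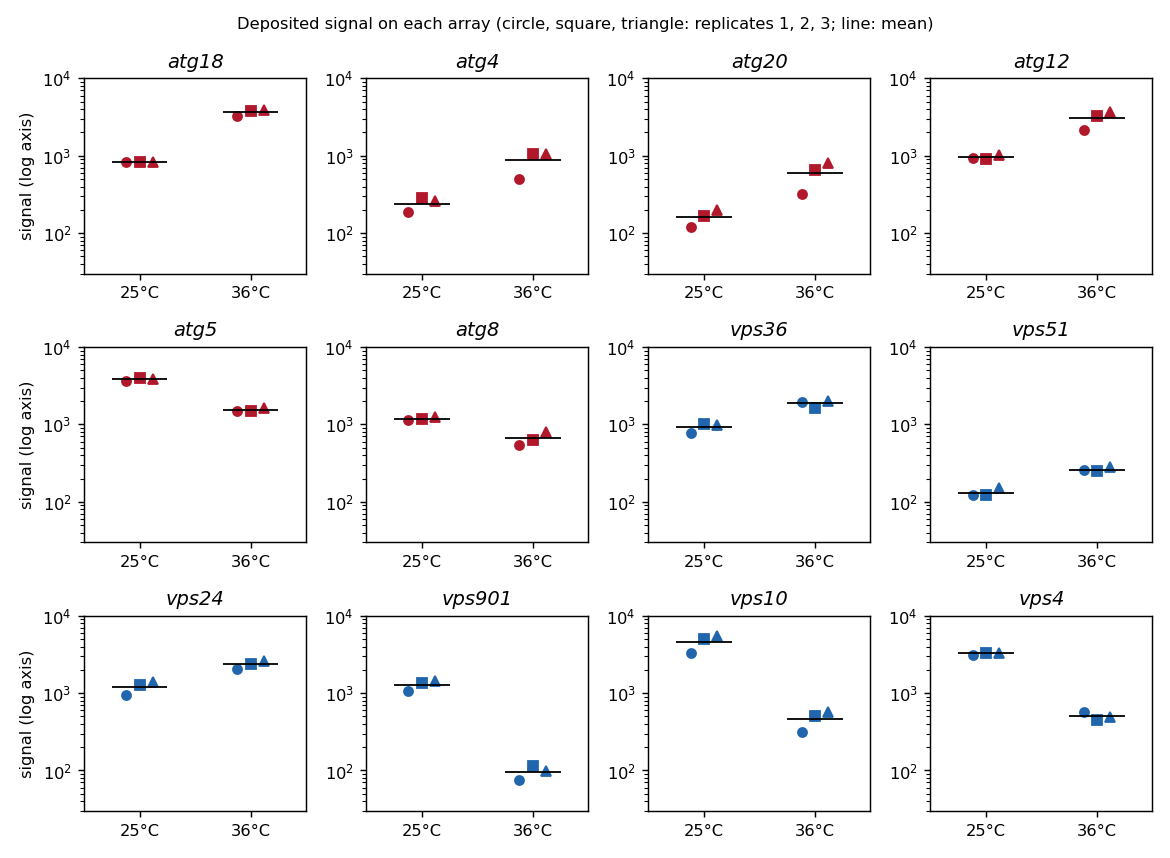
Deposited signal (log axis, y) on each array at 25°C and 36°C (x) for 6 *atg* genes (red) and 6 *vps* genes (blue), with a symbol for each replicate number and a line at the mean. For *atg18* the 36°C arrays lie between 3287 and 3917 against 822 to 842 at 25°C, while for *vps901* they lie between 76.2 and 114 against 1079 to 1423.

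Genes of the initiating kinase complex changed in both directions. The regulatory subunit gene *atg13* (SPAC4F10.07c) rose from 585, 894 and 930.0 to 995, 1723 and 2205, a change of 0.99 (SE 0.34, adjusted p = 0.042). That call was lost without any single array other than 36°C replicate 1 (adjusted p up to 0.12). The kinase gene *atg1* (SPCC63.08c) gave 963, 1437 and 1526 at 25°C and 1346, 2579 and 2936 at 36°C, and only the 36°C array of replicate 1 overlapped the other group. Its change of 0.76 (SE 0.34, adjusted p = 0.097) did not pass, but did so in the paired fit with its replicate block (adjusted p = 0.0040) and without 36°C replicate 1 (adjusted p = 0.0066). The scaffold gene *atg17* (SPAC10F6.11c) fell from 1858, 2252 and 2332 to 1004, 1314 and 1602, a change of -0.74 (SE 0.20, adjusted p = 0.018). After centring the change of *atg17* was 0.03, and its call was lost without 25°C replicate 2 or 3 or 36°C replicate 2 (adjusted p up to 0.067). The gene of Atg11, carried on the array as *taf1*, fell by 1.32 on the log2 scale (SE 0.22, adjusted p = 0.0021). That of Atg101, carried as *mug66*, gave 0.43 (SE 0.34, adjusted p = 0.30).

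Genes of the phosphatidylinositol 3-kinase, which serves both autophagy and endosomal sorting, did not move together. The Beclin-like subunit gene *atg6* (SPAC20G8.10c) rose from 687, 772 and 889 to 2354, 1867 and 2280.4, a change of 1.47 (SE 0.15, adjusted p = 3e-04). The probe set named *atg14* (SPBC18H10.19) belongs by its gene identifier to *vps38* in RefSeq, which in budding yeast is the subunit of the endosomal form of the kinase, and RefSeq gives *atg14* to another gene. The arrays read 855, 1132 and 1219 at 25°C but 1389.5, 1310.5 and 1504 at 36°C, without overlap. The change of 0.41 (SE 0.16, adjusted p = 0.071) did not pass, but did so with the replicate block (adjusted p = 0.039). The gene of the regulatory subunit Vps15, carried on the array as *ppk19*, fell from 817, 1209 and 1337 to 224, 404 and 527, a change of -1.60 (SE 0.36, adjusted p = 0.0080).

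The remaining *atg* genes act at the vacuole or in endosomal sorting. The sorting nexin gene *atg20* (SPCC16A11.08) rose from 122, 168 and 199 to 320.5, 665 and 808, a change of 1.80 (SE 0.38, adjusted p = 0.0065), and its 25°C signals were the lowest of the *atg* genes. The gene *atg15* (SPAC23C4.16c), for the lipase that breaks down autophagic bodies, fell from 1839, 1962 and 2012 to 1326, 1247 and 1321, a change of -0.58 (SE 0.10, adjusted p = 0.0029). Although the groups did not overlap, a change of -0.58 lies near the median feature, and it was 0.19 after centring. The vacuolar amino acid exporter gene *atg22* gave 971, 1301 and 1272 at 25°C and 979.5, 1129 and 1274 at 36°C, a change of -0.06 (adjusted p = 0.78).

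The largest decreases of the *vps* genes were those of *vps901* and *vps10*, in the delivery route to the endosome. Of 6 genes, for endosomal Rab regulators, a fusion factor, a receptor, Vps1 and Vps55, 6 fell, where 51.9% of all features fell. Their median was -1.46. The exchange factor gene *vps901* (SPBC4F6.10), which by homology activates a Rab5-type GTPase, fell from 1079, 1341 and 1423 to 76.2, 114 and 97.9. The change was -3.75 (SE 0.19, adjusted p = 2.8e-05), a 13.4-fold decrease, and only 1.3% of all features changed more negatively. The gene of the carboxypeptidase Y sorting receptor Vps10 (SPBC16C6.06) fell from 3341, 4959 and 5445 to 312, 504 and 563, a change of -3.33 (SE 0.29, adjusted p = 1.4e-04). The other VPS9-type exchange factor gene *vps902* (now *muk1*) fell less, by 0.89 on the log2 scale (SE 0.17), from 2404, 3357 and 3412 to 1480.5, 1678 and 1745.
The endosomal membrane protein gene *vps55* changed by -1.58, the dynamin-related gene *vps1* by -1.35 and *vps45*, for an SM protein of membrane fusion, by -1.10. Of this group, *vps902* and *vps45* did not pass after centring. By contrast, the Rab5-type GTPase gene *ypt5*, a target of such exchange factors, gave signals of 6889 to 7893 at 25°C and 8549 to 9722 at 36°C, a change of 0.28 (SE 0.11, adjusted p = 0.072) that passed with the replicate block (adjusted p = 0.033).

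The lipid transfer protein genes *vps13a* and *vps1302* differed in size of change. The signal of *vps13a* (SPBC21C3.01c, now *vps1301*) fell from 344, 549 and 538 to 36.3, 48.9 and 76.2, a change of -3.18 (SE 0.32, adjusted p = 2.6e-04), and its 36°C signals were the lowest of all 48 genes. For *vps1302* the arrays read 2019, 3209.6 and 3383 at 25°C against 1619, 2259.7 and 2705 at 36°C, with overlapping groups and a change of -0.38 (SE 0.28, adjusted p = 0.27). It passed in the paired fit (adjusted p = 0.016). The gene *vps66* (SPAC1783.02c) fell from 4512, 4975 and 5397 to 1738, 1491 and 1558, a change of -1.64 (SE 0.12, adjusted p = 8.4e-05).

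Of 7 ESCRT genes, 5 fell and 2 rose, where 51.9% of all features fell and 12.1% rose. Subunits of the same subcomplex moved in opposite directions. The ATPase gene *vps4* (SPAC2G11.06), whose product disassembles the ESCRT-III filament, fell from 3114, 3318 and 3346 to 572, 454 and 494, a change of -2.69 (SE 0.13, adjusted p = 2.3e-05). In ESCRT-II, *vps25* (SPBC4B4.06) fell from 449, 406 and 471 to 120.1, 97.9 and 98.0, a change of -2.07 (SE 0.13, adjusted p = 4.7e-05). Its partner *vps36* (SPBC3B9.09) rose from 764, 1011 and 969.8 to 1979, 1647 and 1998, a change of 1.04 (SE 0.16, adjusted p = 0.0015). The within-array log2 ratio of *vps36* to *vps25* shifted by 3.11 (SE 0.19, n = 3), or 8.65-fold, with the 36°C arrays between 3.00 and 3.31 above the 25°C mean.
In ESCRT-III, *vps24* (SPAC9E9.14) rose from 953, 1261 and 1411 to 2073, 2398 and 2627, a change of 0.98 (SE 0.18, adjusted p = 0.0039). The filament subunit gene *vps32* (SPAC1142.07c) fell from 3183, 3286 and 3400.5 to 1576, 848 and 915, a change of -1.62 (SE 0.25, adjusted p = 0.0016), the 36°C array of replicate 1 being the highest of its group. The ratio of *vps24* to *vps32* shifted by 2.60 (SE 0.40, n = 3). The gene of Vps20 (SPBC215.14c), which links ESCRT-II to ESCRT-III, gave 575, 589.6 and 651 at 25°C and 442, 320.3 and 388 at 36°C, a change of -0.67 (SE 0.15, adjusted p = 0.0084). This lay near the median feature, and after quantile normalisation *vps20* was higher (0.70, adjusted p = 0.017). The ESCRT-I gene *vps28* changed by -0.90 (SE 0.22, adjusted p = 0.012) and did not pass after centring or quantile normalisation.

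Retromer and GARP, which return receptors such as Vps10 from endosomes to the Golgi, showed a similar split. The retromer core gene *vps35* (SPCC777.13) rose from 1915, 2642 and 2787 to 3670.5, 3528 and 4051, a change of 0.63 (SE 0.17, adjusted p = 0.018). Without 36°C replicate 3 its adjusted p was 0.058. Its core partner *vps26* fell by 1.61 on the log2 scale (SE 0.19), from 1061, 1061 and 1224 to 475, 307 and 334, and the ratio of *vps35* to *vps26* shifted by 2.24 (SE 0.25, n = 3). The third core gene, *vps29*, fell by 0.71 (SE 0.13, adjusted p = 0.0035), although its change was 0.05 after centring.
Of the sorting nexin subunits, *vps17* (SPAPJ696.01c) fell from 1714, 2322 and 2362 to 551, 566 and 576, a change of -1.90 (SE 0.15, adjusted p = 1.1e-04). Its partner *vps5* gave 823, 1427 and 1458 at 25°C against 812, 1366 and 1551 at 36°C, so that the groups overlapped throughout, with a change of 0.00 (SE 0.33). In GARP, the small subunit gene *vps51* (SPAC3G6.10c) rose from 122, 122 and 151 to 256, 248 and 279, a change of 1.00 (SE 0.13, adjusted p = 8.3e-04). The genes *vps54* and *vps52* fell, by 1.47 (SE 0.30) and 0.91 (SE 0.13) on the log2 scale, while *vps53* gave 0.40 (SE 0.26, adjusted p = 0.22), and passed with the replicate block (adjusted p = 0.029). The ratio of *vps51* to *vps54* shifted by 2.46 (SE 0.31, n = 3).

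With the deposited scaling, the HOPS and CORVET tethers, which share a core of subunits, gave the fewest calls among the larger groups of *vps*-named genes. Of 6 genes with a *vps* symbol 2 fell and 4 did not pass, where 51.9% of all features fell. The tether genes *pep3* and *vam6*, which carry other names and are counted with the related genes below, fell as well. Their changes were -1.60 (SE 0.23, adjusted p = 0.0013) and -1.80 (SE 0.29, adjusted p = 0.0020). The core genes *vps16*, from 811, 1066 and 1082 to 415, 344 and 442, and *vps33*, from 1757, 2350.1 and 2489.7 to 1208, 1128 and 1326, fell by 1.29 (SE 0.17) and 0.84 (SE 0.17) on the log2 scale. The core gene *vps11* gave 4173, 5695 and 6284 at 25°C and 5963, 6744 and 7844 at 36°C, a change of 0.36 (SE 0.20, adjusted p = 0.15), which passed with the replicate block (adjusted p = 0.024). The ratio of *vps11* to *vps16* shifted by 1.65 (SE 0.14, n = 3). The HOPS gene *vps41* changed by -0.22 (adjusted p = 0.36) and the CORVET genes *vps8* and *vps3* by 0.04 (adjusted p = 0.89) and -0.85 (adjusted p = 0.051). For *vps3* each 36°C array lay below each 25°C array, and the change passed with the replicate block (adjusted p = 0.0028). After centring and after quantile normalisation *vps8*, *vps11* and *vps41* were higher, where 39.5% and 27.5% of all features were higher.

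Genes of the same routes that carry other names were listed by function and counted in the same way. Of 35 such genes measured, 1 rose, 16 fell and 18 did not pass, with a median of -0.27. The share that fell was 45.7%, near the 51.9% of all features, and the share that rose was 2.86% against 12.1%. After centring 17 were higher and 10 lower, where 39.5% of all features were higher and 34.5% lower. After quantile normalisation 8 were higher and 11 lower, where the shares of all features were 27.5% and 36.5%. With the replicate block 4 were higher and 16 lower, where the shares were 16% and 58.9%. Of 6 other ESCRT genes, 1 rose, *sst6*, the homologue of Vps23 in ESCRT-I, which went from 502, 477 and 544 to 1320, 1112 and 1311, a change of 1.29 (SE 0.12, adjusted p = 2e-04). The ESCRT-III genes *did4* and *ist1* fell, with changes of -1.06 (SE 0.20) and -0.91 (SE 0.20), but neither was lower after centring. A further gene of this list, *did2*, was lower by -0.50 (SE 0.18, adjusted p = 0.048) and did not pass with the replicate block.
Of 11 genes of vacuole fusion and tethering, 5 fell and 6 did not pass, a share of 45.5% that fell. The largest decreases were *pep7*, a Rab effector at the endosome, at -2.99 (SE 0.27), the SNARE gene *fsv1* at -2.40 (SE 0.17) and the lipid kinase gene *fab1* at -1.84 (SE 0.35). The genes of the vacuolar Rab proteins Ypt7 and Ypt71 changed by -0.27 and 0.04 and did not pass. The 3 vacuolar protease genes measured did not pass, with -0.20 for *cpy1*, 0.44 for *isp6* and 0.36 for *psp3*, although *isp6* and *psp3* were higher with the replicate block (adjusted p = 0.021 and 0.014). Of 14 genes of the vacuolar proton ATPase, which acidifies the vacuole, 7 fell and 7 did not pass, a share of 50% that lay near the 51.9% of all features. The largest changes were those of *vma8* and *vma16*, both at -2.10 (SE 0.16 and 0.12), and *vph1* at -1.27 (SE 0.17). With the replicate block *vma2* was lower as well (adjusted p = 0.032). Of the other autophagy factors 1 gene was measured, *epr1*, a receptor for autophagy of the endoplasmic reticulum that the array carries as *mug185*. It fell from 88.8, 143.8 and 173.5 to 48.0, 33.3 and 52.2, a change of -1.58 (SE 0.30, adjusted p = 0.0040).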

How the data were processed

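Total RNA of 6 samples was hybridised to GeneChip Yeast Genome 2.0 arrays, 1 per sample. The authors computed the deposited signal intensity of each probe set in GCOS v1.4 at its defaults, with global scaling to a target not given in the sources used here. Signals of 0, of which there were 4, were set to 0.1, and limma 3.58.1 (R 4.3.3) compared log2 signals by lmFit and a two-sided eBayes test with Benjamini-Hochberg adjustment over 2919 features with an *S. pombe* gene symbol. Where a gene had several probe sets, their log2 signals were averaged. Symbols came from the platform annotation, and current names from the RefSeq table of assembly ASM294v3 through the Entrez identifier, which matched all 48 genes. The scripts were tested on simulated data in which 200 of 2919 features were changed. Of changes of 1.5-, 2- and 4-fold, 16.9%, 77.6% and 97.1% were recovered, so a small change can stay short of the threshold. Far more features were called in the real data, so these shares need not hold there. Precision is limited by how few arrays there are.

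The members and gene lists were chosen with earlier results of these data known. Every member is named. By rule, array signals were due for the 4 *atg* and 6 *vps* genes with the largest changes in each direction among those that passed, for a gene whose call turned direction with scaling, and for genes that passed against their role group. Related genes were to be named where they passed and were among the 3 largest changes of their list. Further signals, pairs of subunits and other related genes were chosen after their values were seen.

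Paired arrays were checked by their deviations from the mean of their temperature. Arrays with the same replicate number correlated at 0.55, 0.45 and 0.45, each over 0.1, which was taken as pairing. However, replicate 2 at 25°C correlated at 0.49 with replicate 3 at 36°C, and replicate 3 at 25°C at 0.225 with replicate 2 at 36°C. Between temperatures, replicate 1 correlated with replicates 2 and 3 at -0.56 to -0.38. Pairing can therefore not be told apart from replicate 1 differing from replicates 2 and 3. The fit with a replicate block is given beside the main fit where it changes a call. Nothing in the labels says whether samples of a temperature were separate cultures, so p-values measure the spread between these samples. Alternatives were centring, quantile normalisation, scaling to the BioB controls, 32 added to each signal, omission of features under a mean signal of 100, omission of less specific probe sets, inclusion of unnamed ones, eBayes with trend and robust estimation, and each array left out in turn. Membership by current RefSeq symbol was added after the data were seen.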

Additional observations from a re-analysis of the deposited data

How the results depend on the processing

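Centring on the median and quantile normalisation moved most counts. The *atg* median became 1.46 and 1.57, the *vps* median -0.14 and -0.27, and their difference of 1.60 stayed at 1.60 with centring and was 1.84 by quantile normalisation. With centring, 1 *atg* gene was lower, 9 *vps* genes were higher and 13 lower, and 17 related genes were higher and 10 lower. By quantile normalisation, 1 *atg* gene was lower, 10 *vps* genes were higher and 11 lower, and 8 related genes were higher. Related genes that were higher numbered 2 with trend and robust estimation and 4 with the replicate block.

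Changes whose sign turned with centring were *atg15* (0.19), *atg17* (0.03), *atg2* (0.09), *atg22* (0.70), *atg7* (0.71), *vps1302* (0.38), *vps20* (0.09), *vps29* (0.05) and *vps41* (0.54). By quantile normalisation they were *atg15* (0.23), *atg17* (0.03), *atg2* (0.67), *atg22* (0.93), *atg7* (1.23), *atg8* (0.25), *vps1302* (0.19), *vps20* (0.70), *vps3* (0.43) and *vps41* (0.88). With scaling to the BioB controls they were *vps5* (-0.05) and *vps8* (-0.02). With 1 array left out, the sign also turned for *atg7* (-0.20 to 0.04), *atg22* (-0.20 to 0.03), *vps5* (-0.27 to 0.28) and *vps8* (-0.15 to 0.15), none of which passed in any of these fits. Centring and quantile normalisation raised the changes of all features by a median of 0.76 and 0.67.

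With 1 array left out, the number of *atg* genes that rose lay between 6 and 9 and that of those that fell between 3 and 4. For the *vps* genes the numbers lay between 3 and 4 and between 20 and 21, and for the related genes between 1 and 3 and between 14 and 17. The *atg* median lay between 0.52 and 0.84, the *vps* median between -1.04 and -0.84 and their difference between 1.48 and 1.70. The replicate block changed the call of 7 genes, each named above with its blocked value, and no other call among the 48. With current RefSeq symbols, 9 of 19 *atg* genes rose and 5 fell, and 4 of 32 *vps* genes rose and 20 fell, with a difference of medians of 1.61. Of 720 values of single genes over all alternatives, 632 kept their sign and side of the threshold. Several alternatives leave the fold changes of these genes as they are, so that this share says little about scaling. Of the 48 genes, 27 kept both with centring and 24 by quantile normalisation.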

Other observations

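Signals of the *atg* and *vps* genes differed among replicates as well as between temperatures. At 25°C replicate 1 was below the mean of the other 2 arrays for 16 of 17 *atg* and 30 of 31 *vps* genes. The same held for 2573 of all 2919 features. The median differences were -0.41 and -0.45 on the log2 scale, against -0.28 over all features. At 36°C replicate 1 was below for 14 *atg* genes, 20 *vps* genes and 2096 of all features. The medians there were -0.39 and -0.15, against -0.26 over all features. The sample descriptions of replicate 1 differ in form from those of replicates 2 and 3.

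In the RefSeq gene order, 5 pairs of these genes had 2 or 3 protein-coding genes between them. In 4 of the pairs both changes had the same sign: *atg3* (1.46) and *vps36* (1.04), *vps25* (-2.07) and *atg5* (-1.31), *vps45* (-1.10) and *vps4* (-2.69), and *vps1302* (-0.38, not passed) and *vps10* (-3.33). In the other pair *vps66* (-1.64) and *atg12* (1.64) moved in opposite directions. The pairs were found by position, and no test was made. Of all 2919 features, 788 had a positive change and 2131 a negative one, so many pairs share a sign wherever they lie.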
